A study of Mus musculus with 26 samples.

Results

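Lacrimal glands were compared with sublingual glands in BALB/c mice of both sexes, a pair of exocrine glands of which one makes watery tears and the other mucous saliva. The comparison used the 10 arrays, of 26 in all, whose titles name these glands. There were 6 lacrimal arrays, from 3 male and 3 female pools, and 4 sublingual arrays, from 2 male and 2 female pools. Each array was hybridised with messenger RNA of 1 pool of 10 glands from 5 animals. The other 16 arrays held submandibular, parotid and meibomian glands, and they entered the fit to estimate the spread between pools. All mice were of 1 strain, no treatment is named, and the sources used here did not give age, array platform or labelling.

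The lacrimal gland is built mainly of serous acini, whose cells secrete water, salt and the proteins of tears. The mucous acini of the sublingual gland fill their granules with mucins, large proteins that carry many sugar chains and are made through the endoplasmic reticulum and the Golgi. Both glands secrete when nerves raise calcium or cyclic AMP in the acinar cells. Ions then enter the lumen, water follows through aquaporins, and ducts alter the salt of the fluid on its way out. In rodents the lacrimal gland is also known for strong effects of androgens.

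Values are scaled intensities with array medians of 0.928 to 0.955, and levels were compared only within a probe. The brightest probe of an array read 498 to 868 on the lacrimal arrays, 181 and 207 on the sublingual arrays of pool A, and 404 and 423 on those of pool B, so the top of the scale differed between arrays. Differences are log2, lacrimal minus sublingual, with male and female pools weighted equally, and are followed by the standard error and the Benjamini-Hochberg adjusted p of limma. The fit took the arrays as independent. A probe was called if its adjusted p was under 0.05 and its difference was at least 1 on the log2 scale in either direction. Lacrimal values are given as the range and median of 6 pools, and sublingual values in the order female A, female B, male A, male B. A gland was dim for a probe that lay below the 30th percentile of its array on all arrays of the gland, and a fold against a dim gland is given as a bound. RNA came from whole glands, so fewer cells of a type and less RNA per cell cannot be told apart.

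The glands differed at 1900 of 8227 probes, or 23.1%. Lacrimal glands were higher at 1085 probes (13.2%) and sublingual glands at 815 (9.91%). The median over all probes was 0.175 in favour of the lacrimal gland. Quantile normalization moved that median to -0.03 and turned the split round, with 770 probes higher in lacrimal and 1102 higher in sublingual glands, so 41.1% of the calls were higher in lacrimal glands in place of 57.1%. A difference of at least 16-fold was seen at 52 probes higher in lacrimal and 42 higher in sublingual glands. The arrays of the glands did not overlap at 703 of the probes called higher in lacrimal glands and at 590 of those called higher in sublingual glands. Over all probes, the lacrimal arrays lay wholly above the sublingual arrays at 12.1% and wholly below them at 9.01%.

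Among 36 gene lists, those with the largest share of members higher in lacrimal glands were endoplasmic reticulum folding and stress (24 of 47) and receptors of secretory nerves and other signals (7 of 14). Sublingual glands were higher at 14 of 41 transporters of fluid secretion, 11 of 29 enzymes of mucin-type sugar chains and 8 of 25 protease inhibitors. They were also higher at markers of granular ducts (5 of 5), B and plasma cells (9 of 16) and T cells (8 of 14). The same held for markers of macrophages and MHC class II (9 of 21) and of smooth muscle and myoepithelium (5 of 8). With gland and pool letter as a random replicate block, which takes up what male and female pools of a letter share, the fluid transporters had 2 and 12 members called higher in lacrimal and in sublingual glands, the mucous cell regulators 2 and 7 and the cytochromes P450 6 and 1. Of the granular duct markers, Smr2 lost its call with this block (limma adjusted p = 0.0857), and Egf differed by only -0.02 in females. The chart of called members sets the lists side by side.

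**Figure D1:**
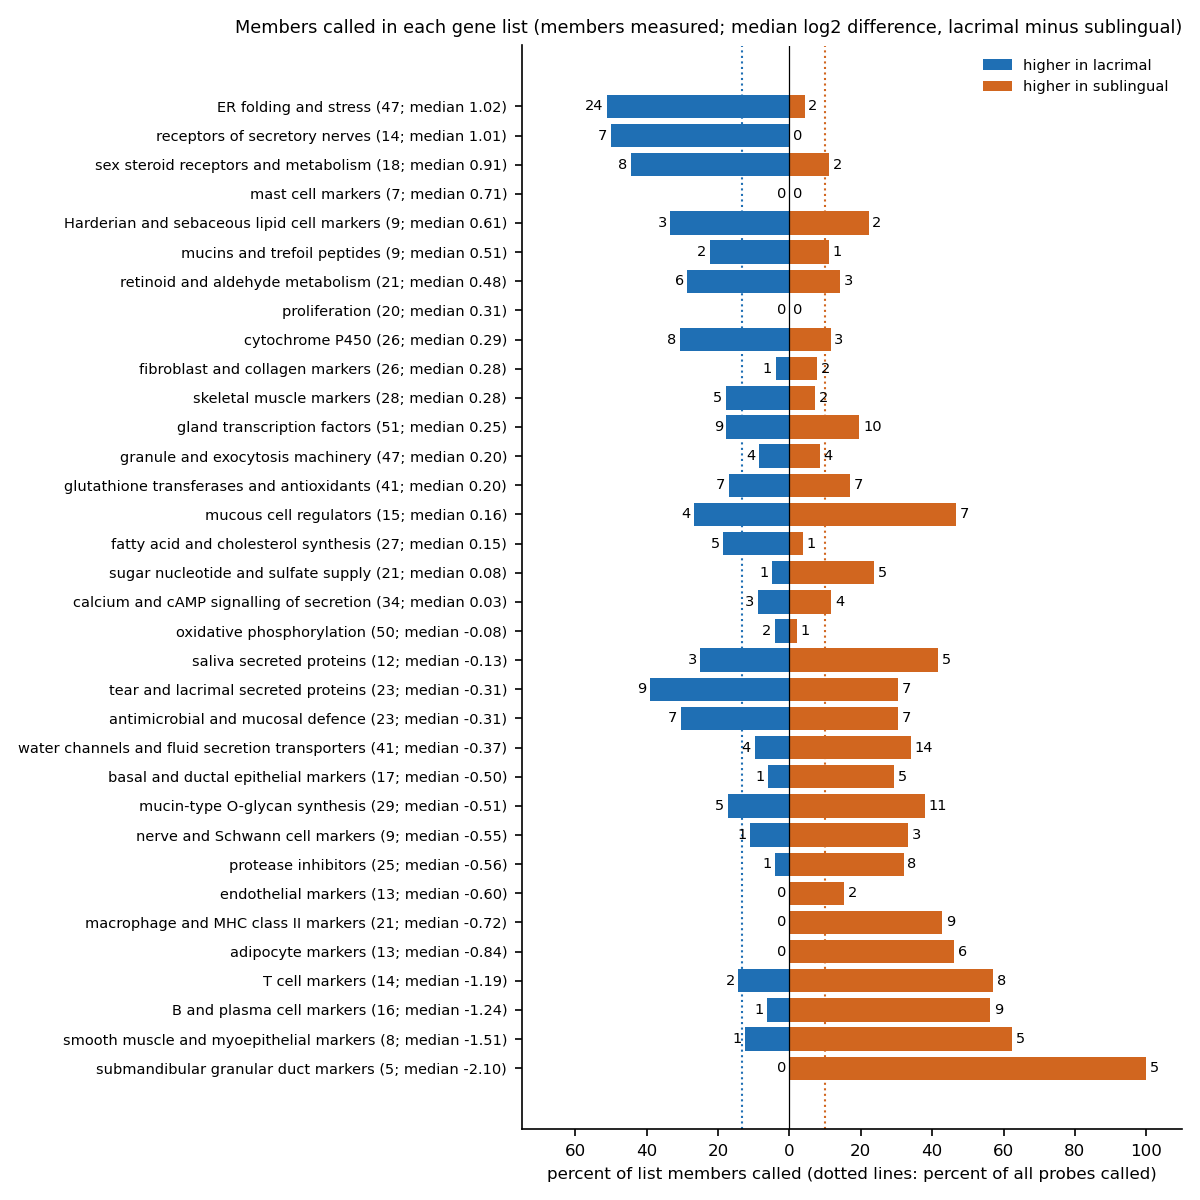
Percent of the measured members of each gene list (5 or more measured) that were called higher in lacrimal glands (blue, to the left of 0) or higher in sublingual glands (orange, to the right), with the number of members called at the end of each bar; the label gives the number measured and the median log2 difference, lacrimal minus sublingual, and dotted lines mark the 13.2% and 9.91% of all probes called. Lists of endoplasmic reticulum genes and of receptors of nerves and other signals lie at the top. Marker lists of granular ducts, of smooth muscle and myoepithelium, and of lymphocytes lie at the bottom.

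Proteins of tears were among the brightest probes of the lacrimal arrays, but the list of tear proteins was split between the glands, with 9 of 23 higher in lacrimal and 7 higher in sublingual glands (median -0.31). Sval2, a member of the prolactin-induced secreted protein family, read 383 to 658 (median 506) in lacrimal pools and 0.966, 2.07, 0.966 and 2.15 in sublingual pools, a difference of 8.48 ± 0.35, adjusted p = 1.73e-13. The lowest lacrimal pool was far above the highest sublingual pool. The probe for Csn1s2a, an alpha-S2 casein of milk, read 80.3 to 346 (median 122) in lacrimal pools, against 0.778, 0.737, 0.713 and 0.519 in sublingual pools (7.61 ± 0.33, adjusted p = 3.26e-13). Scgb1b2, a secretoglobin of the androgen-binding protein family, read 475 to 868 (median 683) in lacrimal and 188, 265, 122 and 52.2 in sublingual pools (2.29 ± 0.31, adjusted p = 8.35e-06). It lay near the top of the scale on all 6 lacrimal arrays and 1 sublingual array, so its difference may be understated. After quantile normalization it was 0.94 (adjusted p = 0.0575). Lpo, the peroxidase of tears and saliva, was 4.9-fold higher in lacrimal glands (2.29 ± 0.22, adjusted p = 9.82e-08), with 360 to 534 (median 463) in lacrimal pools and 84.6, 133, 82.5 and 79.6 in sublingual pools. Its groups were well apart, and the sublingual level was itself far above the array median. Ltf, the iron-binding lactoferrin, read 26.9 to 103 (median 62.5) in lacrimal pools and 6.36, 5.01, 6.3 and 7.81 in sublingual pools (3.17 ± 0.47, adjusted p = 1.93e-05). Dmbt1, a scavenger receptor protein of tears and saliva that binds bacteria, read 6.57 to 32.4 (median 16.4) in lacrimal and 1.32, 1.2, 1.21 and 1.13 in sublingual pools (3.76 ± 0.23, adjusted p = 6.07e-11).

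Members of the same list that were higher in sublingual glands included both lysozymes and a chitinase-like protein. Lyz1, a lysozyme known in mice from Paneth cells, read 1.95 to 9.17 (median 4.24) in lacrimal pools and 13, 13.5, 14.7 and 14.1 in sublingual pools (-1.78 ± 0.38, adjusted p = 0.000966). Lyz2, the lysozyme of macrophages and of some glands, read 3.41 to 12.5 (median 5.82) in lacrimal and 24.2, 39.7, 27.7 and 27.2 in sublingual pools (-2.23 ± 0.33, adjusted p = 1.94e-05). Both probes were higher in sublingual pools without overlap. Markers of macrophages and MHC class II, a list that includes Lyz2, summed over 21 genes to 51.2 to 104 in lacrimal and 152 to 238 in sublingual pools. Of the 21, 9 were called higher in sublingual glands, among them Ciita, H2-Eb1, Cd74 and H2-Aa. The other 12, among them Adgre1, Mrc1 and C1qa, were not called. The part of these cells in the lysozyme values was not tested. Pigr, the receptor that carries IgA across epithelium, averaged 34.6 in lacrimal and 42.9 in sublingual glands and did not pass the test (-0.31 ± 0.50, adjusted p = 0.651).

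The antimicrobial list was divided as well, with 7 of 23 members higher in each gland. Hp, the haemoglobin-binding haptoglobin, read 104 to 438 (median 329) in lacrimal pools and 0.946, 1.37, 1.76 and 1.35 in sublingual pools, 198-fold higher in lacrimal glands (7.63 ± 0.28, adjusted p = 3.5e-14). Pglyrp1, a peptidoglycan recognition protein that kills bacteria, stood at the other end with 0.643 to 1.46 (median 1.25) in lacrimal pools and 100, 56, 83 and 112 in sublingual pools (-6.30 ± 0.48, adjusted p = 2.14e-09). Of the other 3 glands, only the meibomian had a level near that of the sublingual gland, at 43.9 to 72. Outside the list, the probe named for Pf4, a platelet chemokine, read 67.5 to 167 (median 110) in lacrimal and 1.49, 1.65, 1.71 and 1.93 in sublingual pools (6.02 ± 0.29, adjusted p = 2.16e-12).

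The sublingual gland is a mucous gland, so genes of mucin making were examined next. Muc19 and Muc5b, the large mucins of sublingual saliva, were not analysed here. Of 9 mucin and trefoil genes measured, 2 were higher in lacrimal and 1 in sublingual glands, and their levels were low. Muc5ac, a gel-forming mucin of the eye surface and stomach, read 0.794 to 2.24 (median 1.28) in lacrimal pools and 0.41, 0.62, 0.361 and 0.671 in sublingual pools (1.35 ± 0.29, adjusted p = 0.00118). Muc13, a membrane mucin, was dim in lacrimal glands at 0.145 to 0.479 (median 0.297) and read 1.25, 0.854, 3.98 and 1.14 in sublingual pools, at least 3.54-fold higher in sublingual glands (-2.51 ± 0.35, adjusted p = 1.28e-05).

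Of 15 measured genes listed as mucous cell regulators, 7 were higher in sublingual and 4 in lacrimal glands. The list is broad, and those higher in lacrimal glands were Agr2, Foxa2, Bhlha15 and Klf4, not all of them factors that set up mucous cells. Spdef, an ETS factor that drives mucous cell maturation in airway and gut, read 1.02 to 4.09 (median 2.88) in lacrimal pools and 17.1, 15.6, 19.2 and 19.4 in sublingual pools (-2.87 ± 0.26, adjusted p = 3.86e-08). Creb3l1, a membrane-bound factor of secretory capacity, read 3.28 to 7.29 (median 4.58) in lacrimal and 21.2, 28.2, 22.8 and 19.8 in sublingual pools (-2.28 ± 0.34, adjusted p = 2.38e-05). Sox2, a factor of salivary progenitor cells, was dim in lacrimal glands at 0.128 to 0.501 (median 0.174), against 3.47, 2.37, 3.97 and 3.94 in sublingual pools, and was at least 8.03-fold higher in sublingual glands (-3.99 ± 0.64, adjusted p = 5.73e-05). All 4 sublingual pools lay above all 6 lacrimal pools for these 3 factors. Agr2, a protein disulfide isomerase needed for mucin folding in the mouse gut, went the opposite way, at 279 to 460 (median 361) in lacrimal and 18.1, 25.2, 21.2 and 38.2 in sublingual pools. It was 14.5-fold higher in lacrimal glands (3.85 ± 0.24, adjusted p = 9.65e-11), and its level in the other 3 glands reached at most 20.3. Bhlha15, also called Mist1, a factor of serous acinar granules, averaged 12.3 in lacrimal and 3.99 in sublingual glands (1.63 ± 0.56, adjusted p = 0.0265), and its pools overlapped. Its call was lost with gland and pool letter as a random replicate block (adjusted p = 0.0645), after quantile normalization (0.0521), and without Female Sublingual B (0.11), Male Sublingual B (0.158), Female Lacrimal B (0.0517), Female Lacrimal C (0.0527) or Male Lacrimal C (0.0631).

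Enzymes that build mucin-type sugar chains had a median of -0.51, against 0.175 over all probes, with 5 of 29 higher in lacrimal and 11 in sublingual glands. St3gal4, a sialyltransferase that caps galactose, read 0.346 to 0.966 (median 0.438) in lacrimal pools and 47.5, 49.6, 34.8 and 80.9 in sublingual pools. It was 107-fold higher in sublingual glands (-6.74 ± 0.31, adjusted p = 2.28e-12). The size of that fold is uncertain, because the lacrimal values lay near the 30th percentiles of their arrays (0.351 to 0.561). The submandibular gland, at 8.34 to 78.9, reached a level like that of the sublingual gland, and the parotid gland did not, at 1.87 to 4.56. St3gal1, which sialylates the core 1 chain of mucins, read 0.488 to 2.82 (median 0.758) in lacrimal and 13.7, 16.6, 12.3 and 22.8 in sublingual pools (-4.23 ± 0.38, adjusted p = 2.79e-08). St3gal6, another enzyme of this family, read 1.08 to 4.48 (median 1.64) in lacrimal pools and 12.2, 27.1, 16.2 and 28.7 in sublingual pools (-3.54 ± 0.34, adjusted p = 8.22e-08). C1galt1, which makes core 1, and Gcnt1, which branches it, were higher in sublingual glands at -1.90 ± 0.21 and -1.55 ± 0.23, both from low levels. Galnt4, which attaches the first sugar of such chains, differed by -1.67 ± 0.25. The members higher in lacrimal glands were Chst2, B4galt3, Fut1, St6galnac1 and St6galnac2. Chst2, a sulfotransferase of N-acetylglucosamine, averaged 83.2 in lacrimal and 0.794 in sublingual glands (6.71 ± 0.24, adjusted p = 2.03e-14), and is described with the sexes.

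Supply of activated sugars and sulfate followed these enzymes in part, with 1 of 21 genes higher in lacrimal and 5 in sublingual glands (median 0.08). Gfpt1, the first enzyme of amino sugar synthesis, read 1.19 to 1.59 (median 1.38) in lacrimal pools and 6.92, 4.86, 7.12 and 9.39 in sublingual pools (-2.32 ± 0.16, adjusted p = 3.5e-10). Gne, the first enzyme of sialic acid synthesis, read 4.9 to 16 (median 11.1) in lacrimal and 40.5, 27.9, 34.8 and 23.2 in sublingual pools (-1.64 ± 0.17, adjusted p = 2.39e-07). Slc35a1, the Golgi carrier of CMP-sialic acid, read 1.55 to 4.95 (median 3.73) in lacrimal and 16.5, 15.8, 14.1 and 22.3 in sublingual pools (-2.47 ± 0.33, adjusted p = 6.01e-06). The sublingual pools lay above the lacrimal pools for each of these genes without overlap. Papss2, which makes the sulfate donor, was the member higher in lacrimal glands, at 4.09 to 16.7 (median 9.1) in lacrimal and 0.358, 0.203, 0.282 and 0.232 in sublingual pools (4.96 ± 0.35, adjusted p = 7.88e-10). Its sublingual values lay below the 30th percentile of their arrays, except in Female Sublingual A, so the size of this difference is uncertain.

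**Figure D2:**
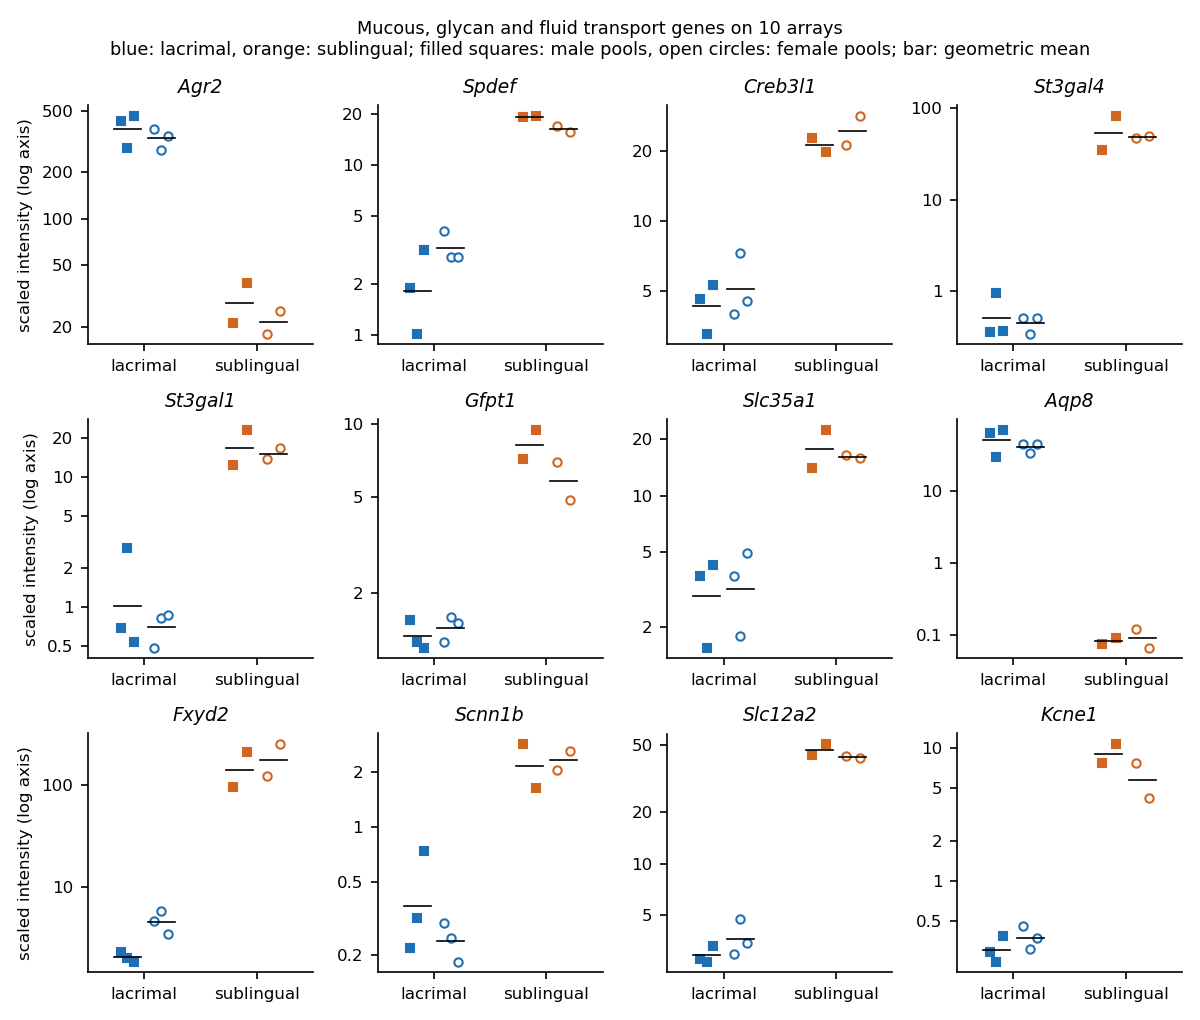
Scaled intensity (log axis) of 12 genes of mucous cells, sugar chains and fluid transport on each of the 6 lacrimal (blue) and 4 sublingual (orange) arrays, with male pools as filled squares, female pools as open circles and bars at the geometric mean. Agr2 and Aqp8 lie higher in the lacrimal pools and the other 10 genes higher in the sublingual pools, with no overlap in any panel.

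Genes of salt and water transport separated the glands at 18 of 41 members, 4 higher in lacrimal and 14 in sublingual glands (median -0.37). Aqp8, a water channel, read 30.3 to 70.3 (median 45) in lacrimal pools and 0.12, 0.0668, 0.0753 and 0.0921 in sublingual pools, where it was dim. It was at least 138-fold higher in lacrimal glands (9.05 ± 0.35, adjusted p = 7.58e-14), and no array of the other 3 glands exceeded 0.792. Aqp5, the water channel of the acinar lumen in both glands, showed no such gap, with 12 to 38.5 (median 28.2) in lacrimal and 22.3, 29.8, 20.9 and 26.6 in sublingual pools (0.10 ± 0.23, adjusted p = 0.757). The pools of the glands overlapped.

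Fxyd2, Atp1b1 and Slc12a2 were called higher in sublingual glands, while the pump subunits Atp1b2 and Atp1b3 and the carriers Slc12a4, Slc12a7, Slc4a2 and Slc4a4 were not called. Fxyd2, the regulatory gamma subunit of the sodium pump, read 1.85 to 5.76 (median 2.87) in lacrimal pools and 123, 251, 96 and 209 in sublingual pools (-5.70 ± 0.30, adjusted p = 6.62e-12). Atp1b1, the beta subunit of the same pump, read 1.28 to 2.39 (median 1.78) in lacrimal and 55.5, 48, 36.5 and 30.8 in sublingual pools (-4.54 ± 0.17, adjusted p = 3.5e-14). Slc12a2, the cotransporter that brings chloride into acinar cells, read 2.65 to 4.71 (median 3.11) in lacrimal and 42.7, 41.7, 43.5 and 50.3 in sublingual pools (-3.79 ± 0.17, adjusted p = 9.4e-13). For all 3 the lowest sublingual pool was far above the highest lacrimal pool. Fxyd2 was bright in the other salivary glands too, at 180 to 329 in submandibular and 98.6 to 270 in parotid pools.

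Of the potassium channel genes, Kcne1 and Kcnj16 were called higher in sublingual glands, and Kcnma1, Kcnn4, Kcnq1 and Kcnj15 were not called. Scnn1a, Scnn1b and Scnn1g, the 3 subunits of the epithelial sodium channel that recovers salt in ducts, were all higher in sublingual glands, with differences of -3.90 ± 0.26, -2.91 ± 0.27 and -1.32 ± 0.27. The call of Scnn1g was lost with pools of letter B only (-0.55, adjusted p = 0.484), in array set 1 (-1.16, 0.143) and in females (-0.98, 0.0725). Scnn1a had 0.69 to 2.16 (median 1.3) in lacrimal pools and 15.6, 21.8, 16.4 and 20.1 in sublingual pools. Kcne1, a partner subunit of potassium channels, read 0.247 to 0.46 (median 0.338) in lacrimal and 7.8, 4.23, 7.78 and 10.7 in sublingual pools (-4.43 ± 0.27, adjusted p = 7.19e-11). Cftr, the chloride channel of ducts, averaged 0.419 in lacrimal and 1.39 in sublingual glands (-1.73 ± 0.38, adjusted p = 0.00142), and its pools overlapped because Female Lacrimal B reached 1.54. The Cftr call was lost with letter B only (-0.49, adjusted p = 0.546), in array set 1 (-0.57, 0.516) and in females (-1.07, 0.178). Car2, a carbonic anhydrase that supplies bicarbonate, differed by -2.10 ± 0.28 without overlap. Duct and acinar cells were not separated. Of 17 basal and ductal epithelial markers, 1, Krt15, was called higher in lacrimal and 5 in sublingual glands, or 3 without Male Sublingual A. Their sums overlapped, at 90.1 to 206 in lacrimal and 181 to 263 in sublingual pools. The keratin Krt7 was among the 5, at 3.24 to 7.65 (median 5.1) in lacrimal and 26.5, 28.8, 29.2 and 39 in sublingual pools (-2.58 ± 0.18, adjusted p = 9e-10), and Krt8, Krt18 and Krt19 were not called. The part of these markers in the channel values was not tested.

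The list of receptors of secretory nerves also holds receptors of other signals, among them Mc5r and Ednrb. Of its 14 members, 7 were called higher in lacrimal glands and the other 7 were not called, and the median of the 14 was 1.01. The probe named for Npy2r, a neuropeptide Y receptor outside the list that is given after its values were seen, was low in lacrimal pools at 2.48 to 13.2, against 85.2 to 239 in sublingual pools. Mc5r, the melanocortin receptor known for control of exocrine glands, read 2.37 to 7.58 (median 4.56) in lacrimal pools and 0.731, 0.631, 0.591 and 0.36 in sublingual pools (2.90 ± 0.32, adjusted p = 4.49e-07). Adra1b, an alpha-1 adrenergic receptor, read 1.43 to 5.69 (median 1.97) in lacrimal and 0.983, 1.07, 1.02 and 1.02 in sublingual pools (1.18 ± 0.28, adjusted p = 0.00242). Adcyap1r1, the receptor of the peptide PACAP, read 3 to 4.89 (median 3.58) in lacrimal and 1.49, 2.22, 1.69 and 1.88 in sublingual pools (1.04 ± 0.30, adjusted p = 0.00888). The lacrimal pools lay above the sublingual pools for all 3. The Adra1b difference was under 1, at 0.89, without Female Lacrimal B. That of Adcyap1r1 was 1.04 (adjusted p = 0.0511) with the random replicate block, 0.90 (0.0521) without Female Sublingual A and 0.99 without Male Lacrimal A. Ednrb, the endothelin B receptor, differed by 1.61 ± 0.18. Tacr1, the substance P receptor, was dim in sublingual glands and at least 1.37-fold higher in lacrimal glands (1.50 ± 0.32, adjusted p = 0.001). Chrm3, the muscarinic receptor that drives secretion in both glands, did not pass the test, with 0.251 to 0.847 (median 0.481) in lacrimal and 0.315, 0.252, 0.383 and 0.252 in sublingual pools (0.60 ± 0.38, adjusted p = 0.231). All sublingual pools but Male Sublingual A lay below the 30th percentile of their array, so the probe says little about whether the glands were alike. The count of called receptors depended on the model: with gland and pool letter as a random replicate block, 4 of 14 were called, in array set 2 alone 3 were, and with pools of letter B only 3 were higher in lacrimal and 1 in sublingual glands.

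Downstream of the receptors, 3 of 34 genes of calcium and cyclic AMP signalling were higher in lacrimal and 4 in sublingual glands, shares near those over all probes (13.2% and 9.91%). Ryr2, the ryanodine receptor known from heart, read 4.56 to 10.9 (median 6.12) in lacrimal pools and 0.533, 0.617, 0.378 and 0.838 in sublingual pools (3.46 ± 0.24, adjusted p = 5.75e-10). Itpr2, an inositol trisphosphate receptor of acinar cells, read 0.549 to 1.12 (median 0.866) in lacrimal and 3.93, 2.46, 4.54 and 2.59 in sublingual pools (-2.00 ± 0.25, adjusted p = 2.16e-06). Atp2a3, a calcium pump of the endoplasmic reticulum, read 0.214 to 0.493 (median 0.309) in lacrimal and 12, 7.9, 14.3 and 6.09 in sublingual pools (-4.93 ± 0.38, adjusted p = 2.88e-09). Tesc, a calcium-binding protein, was dim in lacrimal glands at 0.148 to 0.483 (median 0.253) and read 20.3, 16.8, 17.4 and 17.8 in sublingual pools, at least 43-fold higher there (-6.11 ± 0.27, adjusted p = 5.66e-13). The machinery of granules and exocytosis was called at 8 of 47 members, 4 in each direction, which is below the share over all probes. Rab3d and Rab27b, which dock granules in acinar cells, were among the 39 not called.

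Genes that fold and export new proteins were called mainly in 1 direction. Of 47 members, 24 were higher in lacrimal and 2 in sublingual glands, with a median of 1.02 against 0.175 over all probes. The counts were 14 and 2 after quantile normalization, 8 and 2 with pools of letter B only, 10 and 1 in array set 1, and 24 and 2 in array set 2. Array set 1 joins lacrimal pools B with sublingual pools A, and set 2 joins lacrimal pools A and C with sublingual pools B. In females and males, deviations correlated at 0.398 and 0.297 for lacrimal B with sublingual A. With sublingual B they correlated at 0.272 and 0.264 for lacrimal A, but only at 0.171 and 0.0936 for lacrimal C. Between the sexes, lacrimal A and C correlated at -0.28 and -0.163. Deviations were taken from the mean of each group, which pushes correlations between different letters below 0. The sign of these values therefore cannot tell whether lacrimal A and C belong together. Each sex had 2 sublingual pools, so correlations with sublingual A and B mirror each other. The quartile of probes with the highest levels had a median of 0.24.

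Among these genes, members of the signal peptidase, the translocon and the chaperones were all represented. Spcs2, a signal peptidase subunit, read 106 to 308 (median 187) in lacrimal pools and 36.7, 43.9, 29.3 and 44.2 in sublingual pools (2.37 ± 0.27, adjusted p = 6.1e-07). P4hb, the founding protein disulfide isomerase, read 115 to 261 (median 193) in lacrimal and 72.7, 65.5, 53.2 and 33.3 in sublingual pools (1.82 ± 0.25, adjusted p = 8.35e-06). Sdf2l1, a cofactor of the chaperone BiP, read 49.7 to 105 (median 67.2) in lacrimal and 13.4, 20.8, 16 and 16.8 in sublingual pools (2.12 ± 0.21, adjusted p = 1.53e-07). The lacrimal pools were above the sublingual pools for all 3, without overlap. Manf, a secreted protein of the stress response, read 76.4 to 238 (median 111) in lacrimal and 38.1, 39.9, 43 and 44.8 in sublingual pools (1.58 ± 0.28, adjusted p = 0.000142). Hspa5, which encodes BiP, was 2.3-fold higher in lacrimal glands (1.20 ± 0.23, adjusted p = 0.00039), at 57.8 to 134 (median 71.4) in lacrimal and 38.9, 31.7, 39.1 and 32.7 in sublingual pools. Hsp90b1, another abundant chaperone, did not pass the test, at 62.1 to 101 (median 72.3) in lacrimal and 50, 58.8, 70.7 and 80.1 in sublingual pools (0.27 ± 0.20, adjusted p = 0.296). After quantile normalization the differences of Manf (0.93) and Hspa5 (0.61) were under 1, and that of Hsp90b1 turned to -0.36 (adjusted p = 0.0898).

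The members higher in sublingual glands were Dnajc10 and Ddit3. Dnajc10, a disulfide reductase that helps degrade misfolded proteins, read 8.72 to 34.5 (median 18.8) in lacrimal and 63.8, 83.2, 109 and 220 in sublingual pools (-2.57 ± 0.45, adjusted p = 0.000146). Ern1, a sensor of unfolded protein that is listed with the mucous cell genes, read 0.2 to 0.616 (median 0.509) in lacrimal and 3.65, 2.47, 3.35 and 4.16 in sublingual pools (-3.05 ± 0.27, adjusted p = 2.31e-08). Xbp1, the factor that Ern1 activates by splicing, averaged 72.6 in lacrimal and 45.6 in sublingual glands and was not called because its difference was under 1 (0.67 ± 0.22, adjusted p = 0.0196).

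Promoters of the list were searched for the ER stress response element, at which NF-Y and ATF6 bind upstream of chaperone genes and which reads CCAAT and CCACG with 9 bases of any kind between them. In the 250 bases before the RefSeq start (GRCm38.p6), on either strand, it was present in 35 of 27025 genes with a promoter sequence, or 0.13%. Of the 24 members higher in lacrimal glands 18 had a promoter sequence, and 5 of these held the element (27.8%). Among members not called, 3 of 19 held it (15.8%), in Hsp90b1, Canx and Pdia6, and neither of the 2 members higher in sublingual glands did. So it was present in called and uncalled members alike. The element was found in 6 of 694 promoters of all genes called higher in lacrimal glands, the 5 list members among them. It was in 0 of 554 promoters of genes called higher in sublingual glands. Over the genes of all kept probes it was in 10 of 5772 promoters (0.173%), with the 5 called and 3 uncalled list members among these 10. The counts over all called genes therefore add little to those of the list. The core TGACGTGG of the unfolded protein response element and the TATA box TATAAA, held by 0.603% and 14.3% of all promoters, were in none of the list's promoters. The 5 promoters are printed because they share this element and belong to genes that were higher in the lacrimal gland. Capitals mark the element, which reads from the other strand in Calr and Ero1b. The windows lie at chr19:6046326-6046575 on the plus strand, chr14:118937682-118937931 on the plus strand, chr8:84846932-84847181 on the minus strand, chr2:34771840-34772089 on the plus strand and chr13:12565633-12565882 on the plus strand, each written 5′ to 3′ along its gene.
Syvn1: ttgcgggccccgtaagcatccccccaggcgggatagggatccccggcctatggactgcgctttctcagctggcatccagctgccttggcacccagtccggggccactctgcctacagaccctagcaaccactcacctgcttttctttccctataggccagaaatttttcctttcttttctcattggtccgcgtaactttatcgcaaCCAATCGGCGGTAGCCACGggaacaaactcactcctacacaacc
Dnajc3: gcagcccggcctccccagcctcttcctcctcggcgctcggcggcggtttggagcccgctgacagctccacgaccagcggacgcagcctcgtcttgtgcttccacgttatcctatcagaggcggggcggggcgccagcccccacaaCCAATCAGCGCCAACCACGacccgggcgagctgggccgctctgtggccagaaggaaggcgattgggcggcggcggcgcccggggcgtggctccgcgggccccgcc
Calr: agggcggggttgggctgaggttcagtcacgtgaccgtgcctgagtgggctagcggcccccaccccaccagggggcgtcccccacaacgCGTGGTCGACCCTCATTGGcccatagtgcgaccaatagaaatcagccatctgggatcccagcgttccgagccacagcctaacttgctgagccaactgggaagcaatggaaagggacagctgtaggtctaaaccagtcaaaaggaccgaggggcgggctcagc
Hspa5: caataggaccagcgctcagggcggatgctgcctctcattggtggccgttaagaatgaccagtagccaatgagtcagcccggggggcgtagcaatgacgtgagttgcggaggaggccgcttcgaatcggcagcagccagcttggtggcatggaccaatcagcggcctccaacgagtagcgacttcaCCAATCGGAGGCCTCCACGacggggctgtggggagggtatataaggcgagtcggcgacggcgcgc
Ero1b: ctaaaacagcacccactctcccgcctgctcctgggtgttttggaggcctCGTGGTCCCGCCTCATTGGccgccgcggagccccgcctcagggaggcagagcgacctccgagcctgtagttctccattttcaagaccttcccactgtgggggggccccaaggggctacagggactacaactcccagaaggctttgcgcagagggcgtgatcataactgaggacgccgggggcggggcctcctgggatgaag

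The 5 genes act at different steps of protein quality control. Syvn1, the ubiquitin ligase that marks misfolded proteins, read 3.95 to 32.2 (median 10.1) in lacrimal and 3.17, 5.18, 2.91 and 3.32 in sublingual pools (1.70 ± 0.29, adjusted p = 9.96e-05), and its pools overlapped. Dnajc3, a co-chaperone of BiP, read 15 to 54 (median 26.9) in lacrimal and 11, 7.55, 12.3 and 10.7 in sublingual pools (1.50 ± 0.28, adjusted p = 0.000286). Calr, the lectin chaperone calreticulin, read 9.5 to 47.6 (median 23.6) in lacrimal and 6.44, 12.1, 7.06 and 9.01 in sublingual pools (1.38 ± 0.34, adjusted p = 0.00332), with Female Lacrimal B inside the sublingual range. Ero1b, an oxidase that renews disulfide isomerases, read 1.04 to 1.88 (median 1.57) in lacrimal and 0.615, 0.879, 0.695 and 0.662 in sublingual pools (1.10 ± 0.21, adjusted p = 0.000286), and its difference was 0.98 without Female Sublingual A. The distance from the start of the gene to the first base of the element ran from 44 bases in Syvn1 to 201 in Ero1b.

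**Figure D3:**
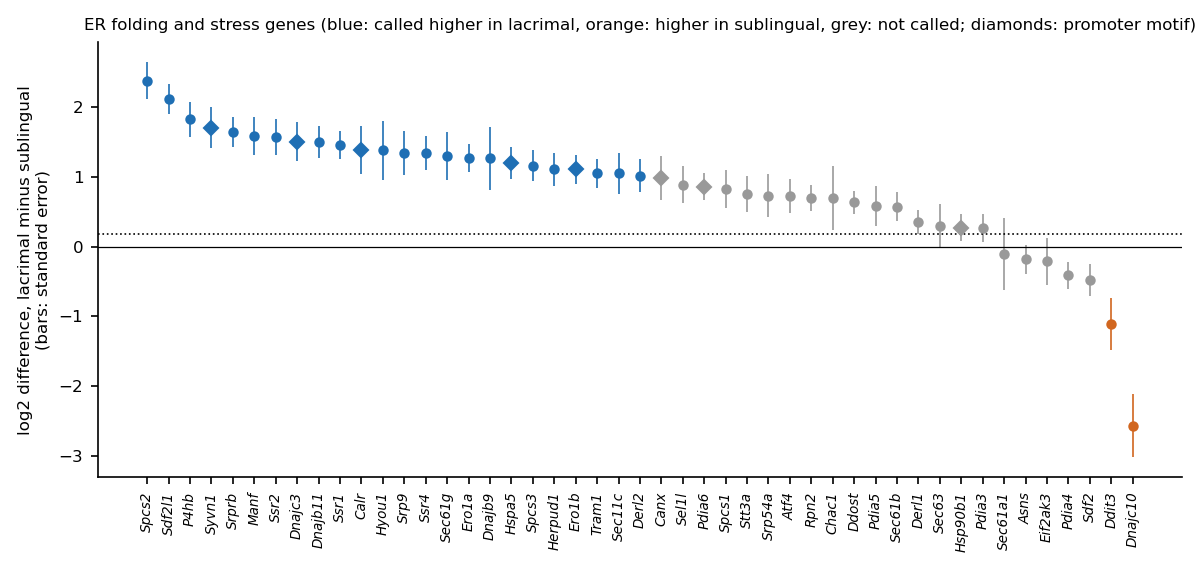
Log2 difference, lacrimal minus sublingual, with its standard error for the 47 measured genes of endoplasmic reticulum folding and stress, coloured by call (blue higher in lacrimal, orange higher in sublingual, grey not called); diamonds mark genes whose promoter holds the ER stress response element and the dotted line is the median of all probes. The points run down from 2.37 for Spcs2 to -2.57 for Dnajc10, with 24 called higher in lacrimal and 2 higher in sublingual glands.

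Proteins shared by the salivary glands made up part of the sublingual side. Amy1, the salivary amylase, read 6.36 to 362 (median 57.4) in lacrimal pools and 140, 297, 136 and 327 in sublingual pools (-2.07 ± 0.75, adjusted p = 0.0336). The lacrimal pools were spread widely: Female Lacrimal B read 362 and Male Lacrimal A 229, above or within the sublingual range, and the other 4 lay between 6.36 and 57.6. The difference was -3.35 (adjusted p = 2.95e-06) without those 2 arrays. The call was lost with the random replicate block (adjusted p = 0.211). It was also lost without Female or Male Sublingual B, Female Lacrimal A or C, or Male Lacrimal B or C, each left out in turn, with adjusted p of 0.0732 to 0.122. Chia1, an acidic chitinase of saliva, had the same pattern, with 285 in Female Lacrimal B and 92.4 in Male Lacrimal A and 3.32 to 37.5 in the other 4 lacrimal pools, against 197, 388, 163 and 361 in sublingual pools (-3.23 ± 0.75, adjusted p = 0.0019). Its difference was -4.51 without those 2 arrays, and it lay near the top of the scale on all 4 sublingual arrays. In parotid pools Amy1 read 150 to 492 and Chia1 151 to 549. Whether salivary tissue entered these lacrimal pools was not tested.

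For other salivary genes the glands did not overlap even with those pools. Klk1b5, a tissue kallikrein of the granular ducts, read 0.35 to 88.9 (median 4.08) in lacrimal and 189, 294, 158 and 304 in sublingual pools (-5.69 ± 0.82, adjusted p = 1.67e-05), with the 88.9 in Female Lacrimal B. Its call was lost with pools of letter B only (-4.88) and in array set 1 (-4.085), which both hold that array. Parotid pools also read high for Klk1b5, at 137 to 365. Chil3, a chitinase-like protein, read 0.329 to 19.9 (median 1.28) in lacrimal and 80.5, 87.7, 87.9 and 104 in sublingual pools (-5.59 ± 0.72, adjusted p = 3.79e-06), again highest in Female Lacrimal B. The probes named for Egr3 and Rad54l2, a transcription factor and a helicase, behaved as these secreted proteins did, at 132 to 281 and 115 to 298 in sublingual pools and 152 to 503 and 156 to 583 in parotid pools. What those probes read was not tested. The call of the Egr3 probe was also lost with pools of letter B only (-5.37) and in array set 1 (-4.38). Without the 2 lacrimal arrays, 1070 probes were higher in lacrimal and 771 in sublingual glands, against 1085 and 815 with them. Car6, the secreted carbonic anhydrase of tears and saliva, was bright in both glands, at 345 to 538 (median 476) in lacrimal and 193, 371, 179 and 353 in sublingual pools, and lay near the top of the scale on all 4 sublingual arrays.

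Transcription factors of gland identity were called in both directions, 9 of 51 higher in lacrimal and 10 in sublingual glands. Pax6, the eye field factor that the lacrimal gland needs to form in mice, read 8.94 to 21.9 (median 17.5) in lacrimal and 0.703, 0.969, 0.597 and 0.966 in sublingual pools (4.35 ± 0.21, adjusted p = 1.95e-12). The highest level in any of the other glands was 5.22, in a meibomian pool. Foxc2, a forkhead factor, read 2.25 to 6.12 (median 4.58) in lacrimal pools and was dim in sublingual pools at 0.15, 0.167, 0.155 and 0.215, at least 12.8-fold higher in lacrimal glands (4.65 ± 0.32, adjusted p = 5.38e-10). Alx4, a factor of early lacrimal gland outgrowth in mice, read 1.01 to 4.69 (median 2.48) in lacrimal and 0.163, 0.155, 0.203 and 0.332 in sublingual pools (3.50 ± 0.31, adjusted p = 2.33e-08). The size of the Alx4 difference is uncertain, because only Male Sublingual B lay above the 30th percentile of its array among the sublingual pools. Sox10, known from salivary acini and from Schwann cells, read 0.88 to 1.73 (median 1.33) in lacrimal and 5.34, 7.68, 4.05 and 4.06 in sublingual pools (-1.98 ± 0.16, adjusted p = 4.18e-09). Of 9 measured markers of nerves and Schwann cells, Sox10, Th and Gfap, which glia express (-4.54 ± 0.59, adjusted p = 4.9e-06), were higher in sublingual glands, Syt1 was higher in lacrimal glands, and the other 5 were not called. The 9, with the bright Th among them, summed to 14.3 to 19.1 in lacrimal and 108 to 172 in sublingual pools. Their part in the Sox10 value was not tested. Tfcp2l1, a factor of salivary ducts, read 0.336 to 1.18 (median 0.979) in lacrimal and 5.39, 6, 5.69 and 4.44 in sublingual pools (-2.75 ± 0.27, adjusted p = 8.36e-08). The probe named for Six3, a further factor of this list, was also higher in sublingual glands. It read 14.9 to 63.3 (median 26.9) in lacrimal, 86 to 290 in sublingual and 151 to 541 in parotid pools. Its call was lost in array set 1 (-1.48, adjusted p = 0.0878).

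**Figure D4:**
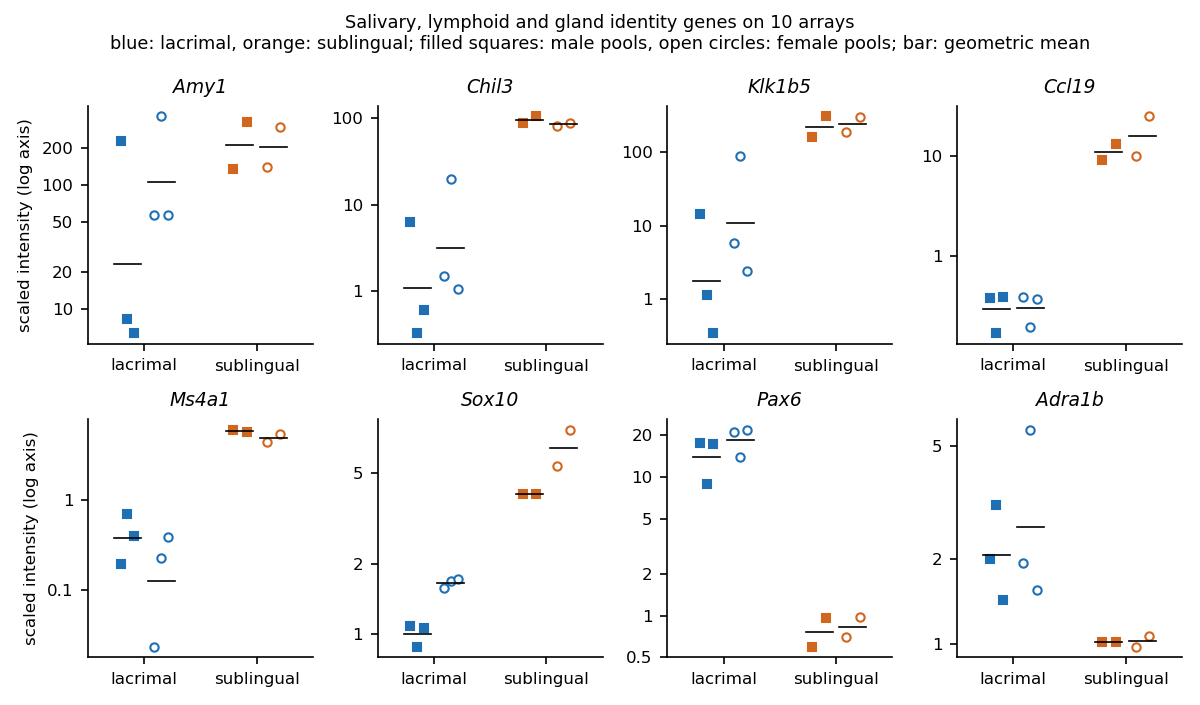
Scaled intensity (log axis) of 8 salivary, lymphoid and gland identity genes on each of the 6 lacrimal (blue) and 4 sublingual (orange) arrays, with male pools as filled squares, female pools as open circles and bars at the geometric mean. Amy1 is 362 in Female Lacrimal B and 229 in Male Lacrimal A, inside or above the sublingual range, while Ccl19, Ms4a1, Pax6 and Sox10 show no overlap between the glands.

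The largest differences also included genes with no list. Anxa8, a calcium-dependent membrane-binding annexin, read 85.1 to 355 (median 156) in lacrimal and 0.301, 0.171, 0.253 and 0.334 in sublingual pools, a difference of 9.35 ± 0.38, adjusted p = 1.39e-13. Its sublingual values lay below the 30th percentile of their arrays, except in Male Sublingual B, so the size of the fold is uncertain. Fam3b, a secreted cytokine-like protein, was dim in lacrimal glands at 0.165 to 0.517 (median 0.321) and read 14.1, 15.3, 13.4 and 26.9 in sublingual pools, at least 39.8-fold higher there (-5.78 ± 0.61, adjusted p = 2.78e-07). Tnfrsf11a, the receptor RANK, read 0.392 to 0.973 (median 0.656) in lacrimal and 36.1, 21, 37.6 and 41.1 in sublingual pools (-5.75 ± 0.37, adjusted p = 2.03e-10). Probes named for Bcl6b, A730035I17Rik, Htr1b, Coil and Slco1a6 were higher in lacrimal glands by 8.28, 7.72, 6.43, 5.84 and 5.86. The probe named for Fgf5, a growth factor, read 2.31 to 4.15 (median 3.6) in lacrimal and 144, 221, 111 and 64.8 in sublingual pools (-5.18 ± 0.22, adjusted p = 2.97e-13).

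Steroid enzymes and receptors were higher in lacrimal glands at 8 of 18 and in sublingual glands at 2 (median 0.91). Cytochromes P450 were higher in lacrimal glands at 8 of 26 and in sublingual glands at 3, but at 2 and 4 with pools of letter B only and at 2 and 2 in array set 1. Glutathione transferases and antioxidant enzymes were called evenly, at 7 and 7 of 41. Akr1c18, which inactivates progesterone in mice, read 9.3 to 131 (median 39.9) in lacrimal pools and was dim in sublingual pools at 0.155, 0.324, 0.178 and 0.288. It was at least 114-fold higher in lacrimal glands (7.40 ± 0.56, adjusted p = 2.03e-09), and its 3 highest pools were female. Hsd17b4, a peroxisomal enzyme that oxidises estradiol and fatty acids, read 15.1 to 41.4 (median 23.6) in lacrimal and 4.69, 2.68, 4.33 and 2.62 in sublingual pools (2.78 ± 0.24, adjusted p = 1.64e-08). Cyp2b10, a drug-metabolising P450, read 4.85 to 32.9 (median 8.48) in lacrimal and 0.305, 0.413, 1.72 and 0.58 in sublingual pools (4.15 ± 0.32, adjusted p = 2.85e-09). Neither gene overlapped between the glands. Hsd11b1, which regenerates active glucocorticoid, was higher in sublingual glands, at 0.344 to 1.62 (median 0.538) in lacrimal and 2.68, 2.12, 3.52 and 3.15 in sublingual pools (-2.12 ± 0.37, adjusted p = 0.000125). Aldh1a7, an aldehyde dehydrogenase, was dim in lacrimal glands at 0.142 to 0.374 (median 0.256) and read 10.6, 6.36, 10.4 and 17.5 in sublingual pools, at least 25.1-fold higher there (-5.43 ± 0.29, adjusted p = 1.25e-11).

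Protease inhibitors were the reverse, with 1 of 25 higher in lacrimal and 8 in sublingual glands (median -0.56). Serpina1b, an alpha-1 antitrypsin of mice, read 0.607 to 1.37 (median 0.752) in lacrimal and 5.34, 19.2, 7.04 and 12.2 in sublingual pools (-3.54 ± 0.35, adjusted p = 9.62e-08). Mouse alpha-1 antitrypsin genes are close copies of one another, so Serpina1b, Serpina1d and Serpina1e may share signal. Serpinb6b, an intracellular serpin, read 0.512 to 1.56 (median 0.831) in lacrimal and 4.38, 5.61, 6.27 and 6.44 in sublingual pools (-2.69 ± 0.23, adjusted p = 1.7e-08). Genes of the respiratory chain gave little contrast, with 2 of 50 higher in lacrimal and 1 in sublingual glands.

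Many markers of lymphocytes were higher in sublingual pools. Ccl19, a chemokine that guides T cells and dendritic cells in lymphoid tissue, read 0.174 to 0.4 (median 0.382) in lacrimal and 9.86, 24.5, 9.07 and 12.9 in sublingual pools (-5.41 ± 0.46, adjusted p = 1.42e-08). Ms4a1, the B cell antigen CD20, read 0.0234 to 0.698 (median 0.308) in lacrimal and 4.39, 5.4, 6.07 and 5.72 in sublingual pools (-4.61 ± 0.68, adjusted p = 2.24e-05). Cd3d, a chain of the T cell receptor complex, read 0.276 to 0.617 (median 0.398) in lacrimal and 3.23, 9.18, 3.94 and 5.96 in sublingual pools (-3.72 ± 0.33, adjusted p = 2.31e-08). The lacrimal levels of these genes were below the array median, and the sublingual levels were above it. Summed over 14 T cell markers, the level was 20.1 to 34.9 in lacrimal and 35.4 to 52.1 in sublingual pools, and over 16 B cell and plasma cell markers it was 18.6 to 89.5 and 42.8 to 70.4. Cd79a was the exception among B cell markers, at 10.1 to 56.4 (median 21.6) in lacrimal and 4.6, 14, 3.24 and 8.98 in sublingual pools (1.70 ± 0.47, adjusted p = 0.00751), and its call was lost without Female Sublingual A (adjusted p = 0.0644) or Male Sublingual A (0.0611). Of the 14 T cell markers, 2, Cd247 and Gzmb, were called higher in lacrimal glands. With the random replicate block, 5 of the B cell and 5 of the T cell markers were called higher in sublingual glands. Jchain and Tnfrsf17, of plasma cells, were not called. Whether a lymph node was included with the sublingual glands was not tested.

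Called markers of contractile and fat cells were higher in sublingual glands at 5 of 8 and 6 of 13, with 1 contractile marker higher in lacrimal glands. Acta2, the actin of smooth muscle and myoepithelial cells, read 4.15 to 12.8 (median 8.55) in lacrimal and 28.6, 17.6, 29.3 and 29 in sublingual pools (-1.72 ± 0.32, adjusted p = 0.000252). Tagln, an actin-binding protein of the same cells, differed by -1.55 ± 0.21 without overlap. Adipoq, the fat cell hormone adiponectin, read 0.917 to 7.1 (median 2.83) in lacrimal and 10.6, 19.9, 9.54 and 14.2 in sublingual pools (-2.40 ± 0.36, adjusted p = 2.5e-05), and Fabp4 differed by -2.54 ± 0.40. The 13 adipocyte markers summed to 21.3 to 51.9 in lacrimal and 101 to 136 in sublingual pools. Th, the first enzyme of catecholamine synthesis, was 37.3-fold higher in sublingual glands, at 0.759 to 1.98 (median 1.25) in lacrimal and 82.8, 94.6, 40.4 and 15.1 in sublingual pools (-5.22 ± 0.25, adjusted p = 2.28e-12). Submandibular pools, at 141 to 216, were higher still, while the sum of 26 collagen and fibroblast markers overlapped between the glands at 69.9 to 291 in lacrimal and 101 to 131 in sublingual pools.

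Was the difference between the glands the same in both sexes? Of the probes called over both sexes, 467 were also called higher in lacrimal and 472 higher in sublingual glands in males alone and in females alone. Males alone gave 929 and 792 calls (11.3% and 9.63%), and females alone 831 and 676 (10.1% and 8.22%). The difference itself differed between the sexes at 143 probes (1.74%) at an adjusted p under 0.05, with the lacrimal gland more favoured in males at 92 and in females at 51. With gland and pool letter as a random replicate block, this count was 627, and in a fit of the 10 arrays alone it was 40. At 74 of the 143 probes the gland difference had opposite signs in the sexes, and at 12 of these it was called in both.

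In one group of genes the sexes differed in lacrimal pools while sublingual pools of both sexes were low. Slc27a2, a fatty acid carrier and very long chain acyl-CoA synthetase, read 295, 158 and 265 in male and 8.68, 4.15 and 10.9 in female lacrimal pools, against 0.185 and 0.455 in male and 0.16 and 0.368 in female sublingual pools. The gland difference was 9.64 ± 0.82 in males and 4.91 ± 0.82 in females, a change of 4.73 ± 1.16, adjusted p = 0.0345. That p rose over 0.05 when Female Sublingual B, Male Sublingual A, Female Lacrimal A, Female Lacrimal B, Male Lacrimal A or Male Lacrimal C was left out, to between 0.0587 and 0.219, with changes of 4.08 to 4.85. It was 0.258 with array weights, 0.0542 with missing values at the floor and 0.0560 with no filter on dim probes. Chst2 read 395, 276 and 320 in male and 40.9, 13.5 and 17.3 in female lacrimal pools, against 0.702 and 0.801 in male and 0.736 and 0.958 in female sublingual pools (4.11 ± 0.47, adjusted p = 1.97e-05). Cyp4a12a, a male-specific fatty acid hydroxylase of mouse liver and kidney, read 328, 129 and 234 in male and 3.2, 2.45 and 3.3 in female lacrimal pools, and 2.58 to 3.52 in sublingual pools of both sexes (6.26 ± 0.88, adjusted p = 0.000214). For Cyp4a12a the gland difference was 6.15 ± 0.63 in males and -0.11 ± 0.63 in females. Ly6f, a small surface protein of the Ly6 family, read 273, 104 and 138 in male and 1.79, 0.482 and 0.739 in female lacrimal pools, with 0.0929 to 0.135 in sublingual pools (7.22 ± 0.67, adjusted p = 1.93e-06). Bpifb2, a lipid-binding secreted protein, read 12.3, 3.32 and 8.47 in male and 0.404, 0.598 and 0.527 in female lacrimal pools, with 0.149 to 0.317 in sublingual pools (4.29 ± 0.68, adjusted p = 0.000776).

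In other genes the male sublingual pools stood above all other pools of both glands. Egf, a growth factor of granular ducts, read 1.86, 1.81 and 6.08 in male and 3.02, 4.67 and 6.83 in female lacrimal pools, against 86.5 and 28.6 in male and 7.01 and 3.09 in female sublingual pools (-4.16 ± 0.79, adjusted p = 0.00424). Klk1b24, a kallikrein of the same ducts, was missing on both lacrimal arrays of pool B. It read 0.139 to 0.524 on the other 4 lacrimal arrays, against 60.4 and 19 in male and 2.27 and 1.43 in female sublingual pools (-4.17 ± 0.80, adjusted p = 0.00826). Sult1e1, the estrogen sulfotransferase, read 0.947, 0.31 and 0.408 in male and 0.608, 0.391 and 0.289 in female lacrimal pools, against 17.9 and 4.69 in male and 0.15 and 0.133 in female sublingual pools (-5.75 ± 0.93, adjusted p = 0.000874). In each of these genes Male Sublingual A was the highest array. Without Female Sublingual B the changes were -3.57 for Egf (adjusted p = 0.0519) and -3.83 for Klk1b24 (0.0527). In a fit of the 10 arrays alone the adjusted p was 0.159 for Egf and 0.279 for Klk1b24, and with missing values at the floor it was 0.230 for Klk1b24. Submandibular pools read 8.46 to 233 for Egf and 4.64 to 218 for Klk1b24, and whether submandibular tissue entered the male sublingual pools was not tested.

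In a few genes the direction itself turned. Asgr1, the asialoglycoprotein receptor, read 0.488, 1.4 and 0.888 in male and 77.6, 36.9 and 31.3 in female lacrimal pools, against 2.23 and 2.74 in male and 2.33 and 2.74 in female sublingual pools. It was lower in male lacrimal than in male sublingual glands (-1.54 ± 0.38) and higher in female lacrimal than in female sublingual glands (4.15 ± 0.38). Cdo1, which oxidises cysteine, turned in the same way, with -1.96 ± 0.29 in males and 1.94 ± 0.29 in females. The probe named for Twist2 had 1.64 ± 0.36 in males and -3.96 ± 0.36 in females, and the probe named for Il3 had 2.02 ± 0.52 in males and -5.10 ± 0.52 in females.

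**Figure D5:**
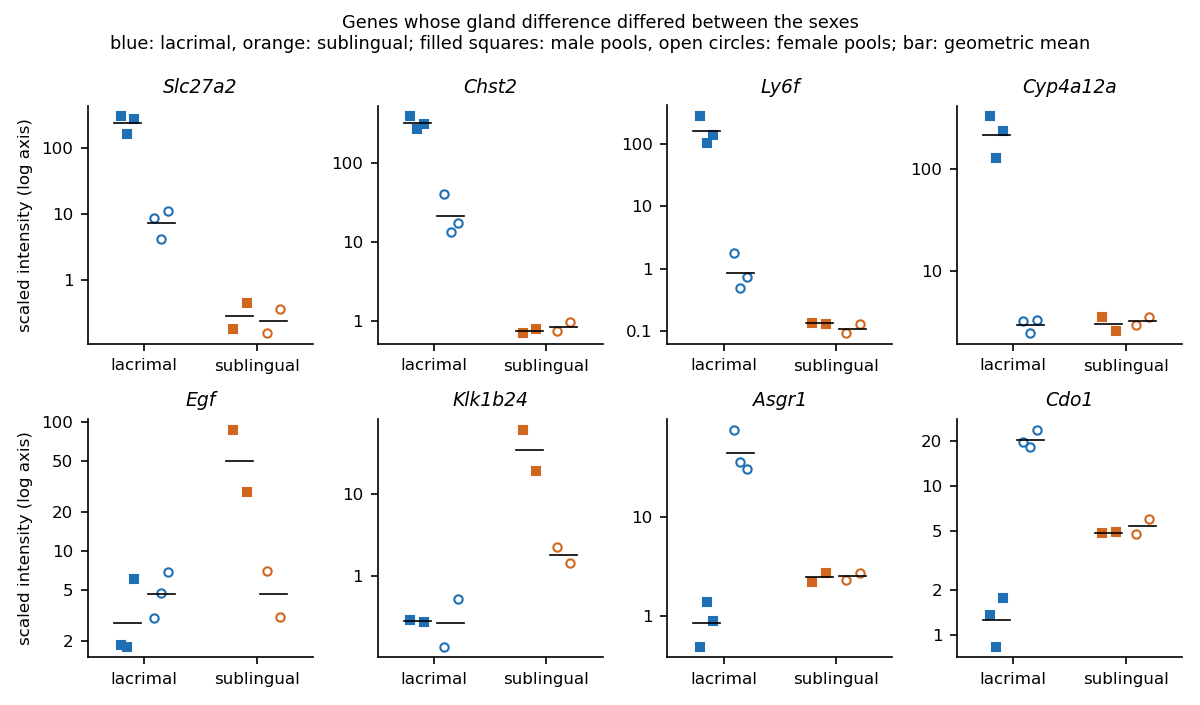
Scaled intensity (log axis) of 8 genes whose gland difference differed between the sexes, on each of the 6 lacrimal (blue) and 4 sublingual (orange) arrays, with male pools as filled squares, female pools as open circles and bars at the geometric mean. Slc27a2, Chst2, Ly6f and Cyp4a12a are high in the male lacrimal pools, Egf and Klk1b24 in the male sublingual pools, and Asgr1 and Cdo1 in the female lacrimal pools.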

How the data were processed

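The deposited table held 1 scaled intensity per probe and array for 26 arrays and 10500 probes, made by the authors. The sources used here did not state background correction, scaling, platform or software, and no column was left unmapped. A value of -1 was taken as missing (2241 values, 0.821%), values under 0.0234, the 1st percentile of positive values, were set to it, and log2 was taken. A probe was kept if all arrays of 1 or more of the 10 groups of sex and gland had it at or above their 30th percentile, which left 8227. limma 3.58.1 in R 4.3.3 was fitted to all 26 arrays with 10 group means, and p-values were adjusted by Benjamini-Hochberg over all kept probes. The contrasts were lacrimal minus sublingual with sexes weighted equally, the same in each sex, and the male minus the female difference. Each array is 1 pool, so p-values rest on the spread between pools, shared over all groups, and the number of pools limits the precision. The median spread was 0.505 in lacrimal and 0.349 in sublingual pools. The reported fit took the arrays as independent and did not allow for what male and female pools of a letter share. Its p-values for the gland difference may therefore be too small. The procedure was tested on simulated data with independent arrays, which cannot show the effect of what pools of a letter share.

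Male and female pools of 1 letter deviated together within glands (r of 0.539, 0.441 and 0.518 in lacrimal pools A, B and C, and 0.65 in sublingual pools A), so a random replicate block of gland and letter was an alternative (correlation 0.563). Between glands the letters ran crossed, though weakly for lacrimal C (r of 0.0936 and 0.171 with sublingual B). Array sets drawn from this were added after seeing the data, as was leaving out Female Lacrimal B and Male Lacrimal A. Gene symbols came from the platform annotation: 8983 probes had 1 symbol, 1 had several and 1516 had none, and 8975 were matched by Entrez number to RefSeq (GRCm38.p6) for names only. Named genes were the 15 highest and 15 lowest called without overlap, up to 5 members of each list by size, the 8 with the smallest p in the sex-by-gland test, and list members given with their values. Members and lists were chosen with earlier results of these data known. A planned comparison of protein composition was not run, because no protein table was used here.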

Additional observations from a re-analysis of the deposited data

Results flagged for a closer look

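The gland difference differed between the sexes by an interaction test in limma at 28 genes among those named or listed. Values are the male minus the female difference, each lacrimal minus sublingual, on the log2 scale, so a positive value means that this difference was higher in males, which includes genes that lay less far below the sublingual gland in males. Positive values were 7.88 for the probe named for Rsph6a, 7.22 for Ly6f, 7.12 for the probe named for Il3, 6.26 for Cyp4a12a, 5.82 for the probe named for Olfr140, 5.59 for the probe named for Twist2 and 5.35 for Trpm5, a taste cell channel. Slc27a2 had 4.73, Bpifb2 4.29, Chst2 4.11, Cyp3a13 3.51, St3gal5 3.48, Serpina1d 3.09 and Aldh3b1 2.82. Tyms had 2.41, Scd1 2.39, Th 2.14, Crisp2 2.07 and Fut8 1.46.

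Negative values were -5.75 for Sult1e1, -5.69 for Asgr1, -4.18 for Adh1, -4.17 for Klk1b24, -4.16 for Egf, -3.9 for Cdo1, -3.87 for the probe named for Nkx2-1, -3.19 for the lipid droplet gene Plin2 and -2.01 for the matrix gene Postn. What the probes named for Rsph6a, Il3, Olfr140, Twist2 and Nkx2-1 read was not tested. Single outlying arrays were not tested, since groups held 2 or 3 arrays.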

How the results depend on the processing

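The counts of 1085 probes higher in lacrimal and 815 higher in sublingual glands were 1871 higher in lacrimal glands with no filter on dim probes, 1821 higher there with pools of letter A only and 681 with letter B only, and 1875 and 1257 with the adjusted p alone. The count of 143 probes whose gland difference differed between the sexes was 40 with the 10 arrays alone and 627 with the random replicate block, which gave 889 and 707 gland calls, 1595 of them shared with those reported. Leaving out 1 array gave 932 to 1258, 779 to 881 and 101 to 180. Directions turned, without a call, at Pigr (1.08 with letter B, 0.12 in array set 2, 0.46 in females, and 0.11 and 0.02 without Female or Male Sublingual A, within -0.73 to 0.11 over single arrays left out), Aqp5 (-0.015 with pool letter as a fixed replicate block, -0.26 with quantile normalization, -0.70 with letter B, -0.31 in array set 1, -0.16 in males, and -0.001897 and -0.028 without Female Sublingual A or Male Lacrimal C, within -0.028 to 0.31 over single arrays left out), Hsp90b1 (-0.36 with quantile normalization, -0.075 with letter B), Car6 (-0.21 with quantile normalization) and Xbp1 (-0.016 in males). They turned at the called Trpm5 (-0.031) and Cyp4a12a (-0.11) in females, Srebf2 (-0.017) in array set 1, Cox6a2 (-0.014) with letter B, and, with missing values at the floor, Fdps (-0.61), Smr2 (0.47) and Cnn1 (0.18). Sult1e1 was 1.53 in females. The cause was not tested. Calls were gained at Pigr (-2.11 with letter A), Xbp1 (1.35 in females) and Car6 (1.52 with letter A, 1.13 in array set 1, and 1.07 and 1.08 without Female or Male Sublingual B). Of 184 named genes, 92 kept their call, or its absence, under every alternative run, and 27 of the 30 with the largest differences did. Dim probes limit folds, and the top of the scale differed between arrays.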
